A study of Mus musculus with 6 samples.

Results

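Wnt proteins are secreted ligands that bind frizzled receptors on the cell surface. In the β-catenin branch of the pathway, the co-receptors LRP5 and LRP6 join the complex. GSK-3 is then kept from marking β-catenin for destruction, so in this branch GSK-3 lies downstream of ligands and receptors. Secreted antagonists work outside the cell: SFRP proteins and WIF1 bind the ligand itself, whereas Dickkopf proteins bind the LRP co-receptors. In the developing cortex, ligands and antagonists made by the cortical hem, by progenitors and by neurons are known for roles in patterning, progenitor division, vessel growth and axon guidance.

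Genes were chosen by name alone, from the rows of the expression table with a single gene symbol: Wnt ligands, frizzleds, *Lrp5* and *Lrp6*, *Ror1*, *Ror2*, *Ryk*, R-spondins, *Lgr4* to *Lgr6*, SFRP genes, *Frzb*, *Wif1* and Dickkopfs. This gave 51 of the 22180 genes measured, made up of 19 Wnt ligands, 10 frizzleds, 5 co-receptors and kinase-like receptors, 7 R-spondins and Lgr receptors, 6 Wnt-binding antagonists and 4 Dickkopfs. RNA from cortex of 3 control and 3 *Gsk3:Neurod6* embryos, all taken on embryonic day 18, had been measured on Affymetrix Mouse Gene 2.0 ST arrays, each embryo on its own. Both groups lacked *Gsk3a* and carried floxed *Gsk3b* alleles (labelled GSK-3 alpha -/- beta loxp/loxp in controls), on a mixed genetic background. Only the mutants, labelled GSK-3:Nex conditional mutant, carried Cre, from the *Neurod6* (*Nex*) locus, which recombines *Gsk3b* exon 2 in intermediate progenitors and newly born excitatory neurons. Interneurons and vessel cells of the tissue are outside this lineage. The paper also names developing glia among cells in which *Gsk3b* likely did not recombine. Effects of the Cre allele itself cannot be told apart from those of *Gsk3b* loss. The embryos came from 2 litters, which the sources used here do not assign to embryos. The sample labels call the tissue embryonic cortex, the design text names presumptive somatosensory cortex and the methods dorsal cortex. The 8 dorsal cortex marker genes examined all lay above the background level described next. The lower quartiles of the 6 arrays lay between 6.17 and 6.24 and the upper quartiles between 8.90 and 8.96 on the log2 scale. Mutant replicate 6 stood apart in *Xist*, the RNA of the inactive X chromosome, at 11.89 against 5.77 to 6.18 on the other arrays.

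Of the 51 genes, 27 gave a mean signal above the background level in embryonic day 18 cortex, beside 12942 of all 22180 genes. That level, 7.35 on the log2 scale, is the 95th percentile of 1432 olfactory, vomeronasal and taste receptor genes, which cortex has little use for. It is a guide only, since probes of different genes differ in brightness and levels of different genes are not compared here. Above it lay 8 of 10 frizzleds, 4 of 5 co-receptors and kinase-like receptors and 5 of 7 R-spondins and Lgr receptors, but 7 of 19 Wnt ligands, 2 of 6 Wnt-binding antagonists and 1 of 4 Dickkopfs. The signal was above the level on all 6 arrays for 26 genes, and on 5 arrays for *Wnt9a*. Values of *Wnt9a* (7.42 in controls and 7.45 in mutants) lay just above the level, and those of *Wif1* (7.36 and 7.19) averaged just below it. With the level set at the 99th percentile of the receptor genes, 8.79, 10 genes remained: *Wnt7b*, *Fzd1*, *Fzd3*, *Fzd8*, *Lrp5*, *Lrp6*, *Ryk*, *Rspo3*, *Sfrp1* and *Dkk3*. All 51 lay above the median of the receptor genes, 4.90.

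**Figure D1:**
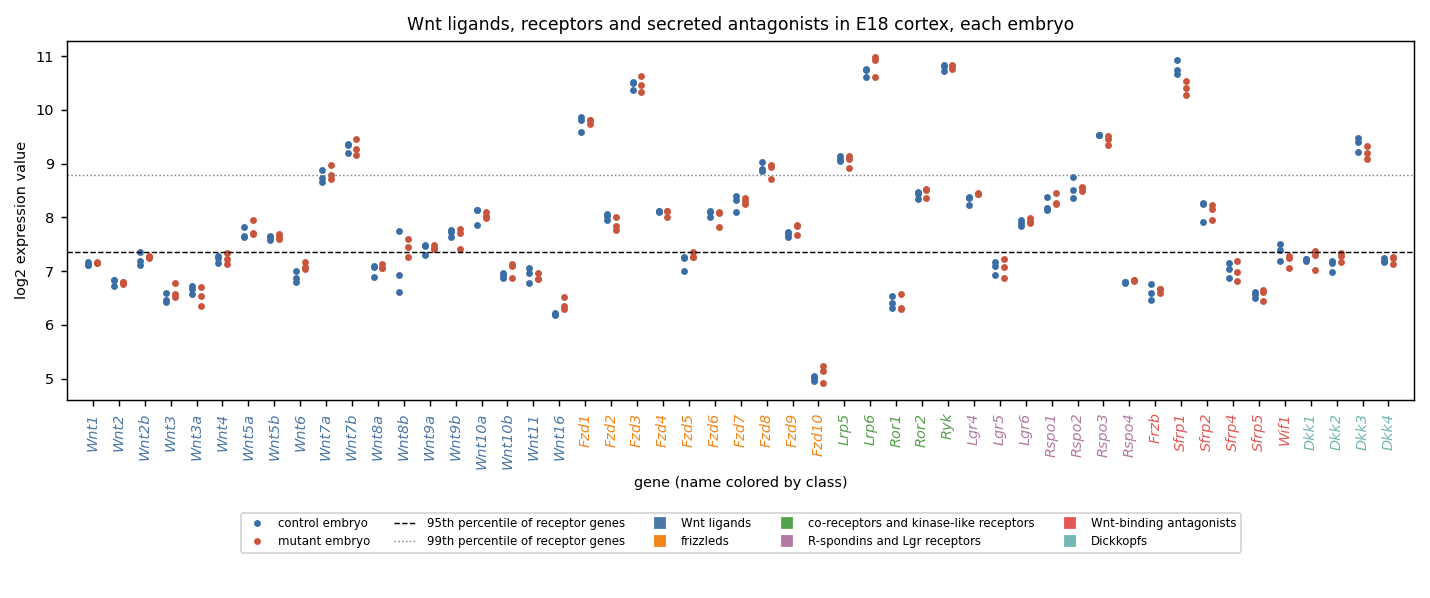
Log2 expression value (y axis) of each of the 51 genes (x axis, names colored by class) in 3 control embryos (blue points) and 3 mutant embryos (red points), with the background level of 7.35 as a dashed line and the 99th percentile of the receptor genes, 8.79, as a dotted line. Most frizzleds lie above the dashed line and most Wnt ligands below it, and the red and blue points of most genes overlap.

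No Wnt ligand, receptor or antagonist passed the test between mutant and control cortex, and for most of them a difference of 1.5-fold lay outside the interval. The question here was whether loss of GSK-3 in newborn neurons went with altered expression of the genes that bring the Wnt signal to the cell. By limma with Benjamini-Hochberg adjustment over all genes, 0 of the 51 genes passed an adjusted p of 0.05, and over the whole array 1 gene did (0.00451%). At an unadjusted p under 0.05 there were 3 (5.88%), 2 higher and 1 lower in mutants, beside 7.32% of all genes (3.51% higher and 3.81% lower). The share of the 51 genes was thus close to that of the whole array. The 3 genes were *Wnt6*, *Wnt16* and *Sfrp1*. The median log2 difference of mutant minus control was 0.02 over the 51 genes and 0.00 over all genes, and its median size without sign was 0.05 against 0.06. By mean, 31 genes were higher and 20 lower, beside 11021 higher and 11159 lower of all genes. Among the 27 genes above background 14 were higher and 13 lower, and among the 24 not above it 17 and 7. A change of 1.5-fold, the study's criterion for candidates, was reached by 0 of the 51 genes and by 0.117% of all genes. The 95% interval of the difference lay within 1.5-fold in either direction for 49 of the 51 (96.7% of all genes), the exceptions being *Sfrp1* and *Wnt8b*. These were 26 of the 27 genes above background (98.8% of all such genes) and 23 of the 24 not above it. In the latter, signal near background limits what an interval can show. All these intervals are of bulk cortex, with cells outside the Cre lineage mixed in. They do not bound a change within recombined neurons alone. Groups did not overlap for 6 genes, 4 higher and 2 lower in mutants, beside 13.3% of all genes (6.34% higher and 6.93% lower). The count of 3 became 6 without mutant replicate 5 (*Sfrp1*, *Wnt3a*, *Lrp6*, *Fzd9*, *Fzd10* and *Wnt16*) and 5 without mutant replicate 6 (*Sfrp1*, *Fzd2*, *Wnt6*, *Wnt10b* and *Wnt16*). The share of all genes at that p was not counted without these arrays, so these counts have no share to stand beside. With 3 embryos in each group, the smallest two-sided p of an exact permutation test is 0.1, and precision is bounded by how few arrays there are.

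**Figure D2:**
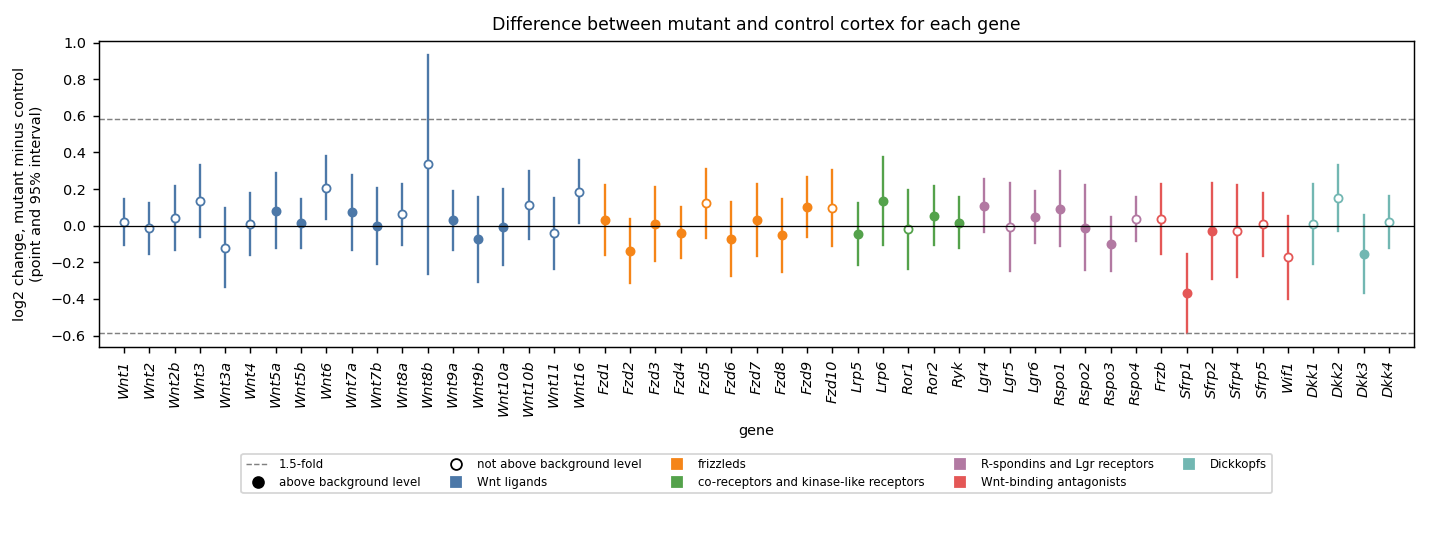
Log2 difference of mutant minus control (y axis, point) with its 95% interval from limma (line) for each of the 51 genes (x axis), colored by class, filled where the gene lies above the background level and open where it does not. The dashed lines mark 1.5-fold. The intervals of *Sfrp1* and *Wnt8b* reach past a dashed line and the other 49 do not.

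*Sfrp1*, the antagonist with the clearest difference, was lower in every mutant embryo than in every control embryo. SFRP1 carries a cysteine-rich domain like that of frizzleds, with which it binds Wnt proteins. In the embryonic cortex it is known as a product of ventricular zone progenitors. Which cells gave the *Sfrp1* signal here, and whether they had recombined *Gsk3b*, was not measured. On the log2 scale, control embryos measured 10.75, 10.94 and 10.67, against 10.28, 10.54 and 10.42 for mutant embryos. The lowest control, replicate 4, thus stood above the highest mutant, replicate 6. Control embryos averaged 10.78 ± 0.14 (SD, n = 3), mutant embryos averaged 10.41 ± 0.13 (SD, n = 3), and the log2 difference was -0.37 (95% interval -0.59 to -0.15). This corresponds to a ratio of mutant to control of 0.774 (0.666 to 0.900). The unadjusted p from limma was 0.00456 and the adjusted p was 0.495, so the difference missed the threshold over all genes, and an exact two-sided permutation test gave p = 0.1. *Sfrp1* was the 1 gene of the 51 with an unadjusted p under 0.05 in each of the 15 other settings tried, where its log2 difference ran from -0.43 to -0.29 and its adjusted p from limma from 0.149 to 0.711.

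Values of several marker lists stand beside that of *Sfrp1*. Of 11 measured cell cycle genes, 11 had lower means in mutants and 10 an unadjusted p under 0.05 (3.81% of all genes were lower at that p), with a median log2 difference of -0.24. The mean level of this list was 9.54 to 9.67 in controls and 9.27 to 9.39 in mutants. Of 8 intermediate progenitor genes, 8 had lower means and 5 an unadjusted p under 0.05, with a list level of 9.04 to 9.16 in controls and 8.83 to 8.98 in mutants. For 13 radial glia genes the level overlapped, at 10.31 to 10.38 and 10.28 to 10.36, and the median was -0.02. By mean, 6 of the 13 were higher and 7 lower in mutants, with log2 differences from -0.25 to 0.16. *Gli3*, *Hes1* and *Pax6* were the 3 radial glia genes with an unadjusted p under 0.05, at log2 differences of -0.25, -0.21 and -0.20. Of 8 dorsal cortex genes, 6 had lower means and 1 an unadjusted p under 0.05, namely *Neurod6*, the locus that carries Cre in mutants, at -0.60 (adjusted p = 0.0977 from limma). Without *Neurod6*, chosen for removal after its value was seen, the mean level of the other 7 genes was 10.12, 10.10 and 10.14 in controls and 10.06, 10.15 and 10.11 in mutants, so the groups overlapped. Among all these marker genes 0 passed an adjusted p of 0.05 in limma. The part of these cells in the value of *Sfrp1* was not tested, and in bulk tissue fewer cells of a type and less RNA per cell cannot be told apart. Marker lists of interneurons (7 genes), vessels (9), meninges (9), choroid plexus and cortical hem (5), Cajal-Retzius cells (6) and microglia (6) had overlapping levels, with median log2 differences of -0.03 to 0.06.

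**Figure D3:**
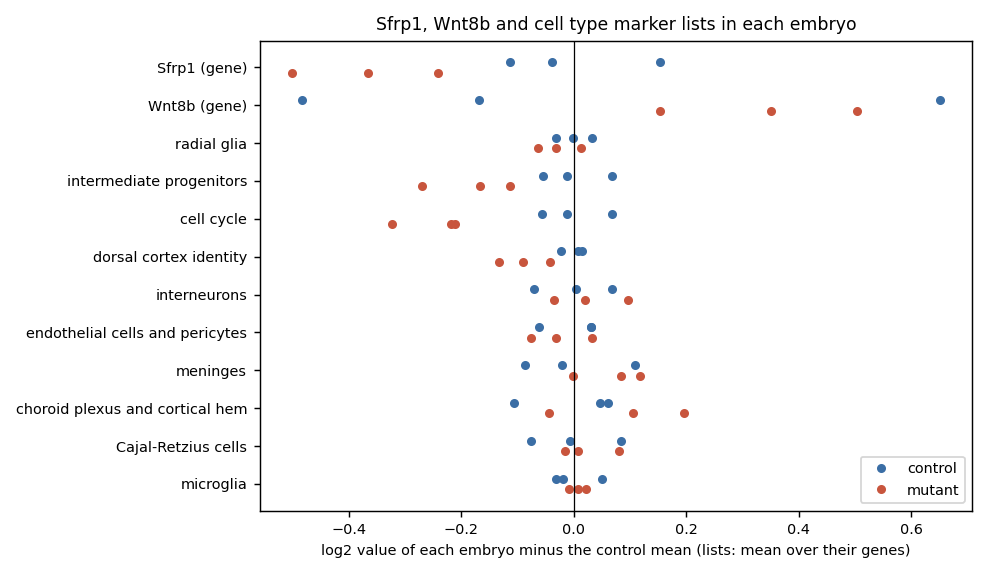
Log2 value of each embryo minus the mean of the 3 controls (x axis) for *Sfrp1*, *Wnt8b* and 10 marker lists (y axis, mean over the genes of a list), with controls in blue and mutants in red. The mutants lie below all controls for *Sfrp1*, for the cell cycle and intermediate progenitor lists and for the dorsal cortex list, where the separation is gone without *Neurod6*, and overlap with controls for the other lists and for *Wnt8b*.

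The other 5 Wnt-binding antagonists had differences of 0.17 or less in size, with intervals that included 0. *Sfrp2*, the other member of the class above background and likewise an SFRP, had log2 values of 8.24, 8.27 and 7.92 in controls and 7.96, 8.16 and 8.23 in mutants. The groups overlapped almost fully, and the difference was -0.03 (95% interval -0.29 to 0.23). A separate cluster of *Sfrp2* probes, at 6.56 over the 6 arrays and thus below background, had 0.02. *Wif1*, which binds Wnt proteins through a WIF domain, had 7.50, 7.20 and 7.39 in controls and 7.24, 7.05 and 7.29 in mutants, with a difference of -0.17 (-0.40 to 0.05) around the background level. *Frzb*, *Sfrp4* and *Sfrp5* gave no signal above background on any array, and their differences lay between -0.03 and 0.04.

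Of the Dickkopfs, *Dkk3* alone lay above background. DKK3 is a divergent family member that is not known to bind LRP6 as DKK1 does. Controls had log2 values of 9.21, 9.48 and 9.40 and mutants had 9.20, 9.10 and 9.34. Control replicate 2 was as low as the mutants, and the groups overlapped. The difference was -0.16 (95% interval -0.37 to 0.06, adjusted p = 0.777 from limma). *Dkk2*, below background, had the smallest p of this class (unadjusted p = 0.0858 from limma). Its values were 7.20, 7.15 and 6.99 in controls and 7.33, 7.29 and 7.17 in mutants, a difference of 0.15 (-0.03 to 0.33). *Dkk1* and *Dkk4*, both inhibitors of the LRP co-receptors, had 0.01 and 0.02 at levels below background.

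**Figure D4:**
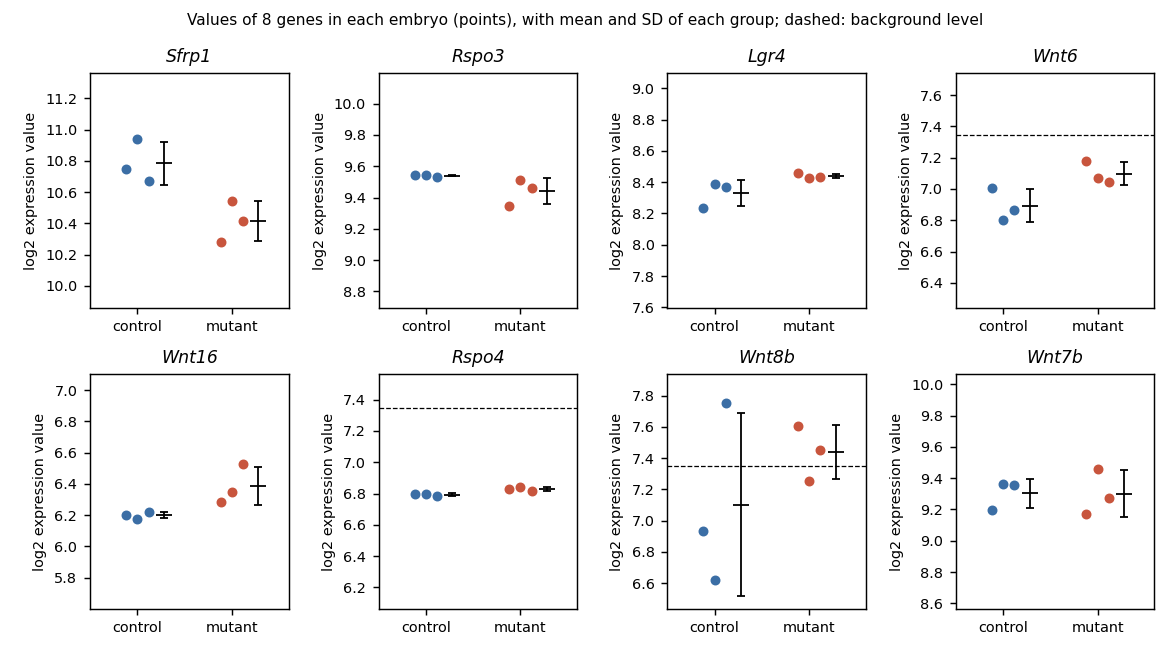
Log2 expression value (y axis) of 8 genes in each control embryo (blue points) and mutant embryo (red points), with mean and SD of each group of 3 in black and the background level of 7.35 dashed where it falls in the panel. All panels span the same range of 1.5 log2 units. Groups do not overlap for *Sfrp1*, *Rspo3*, *Lgr4*, *Wnt6*, *Wnt16* and *Rspo4*, while *Wnt8b* varies from 6.62 to 7.75 among controls and *Wnt7b* overlaps.

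The 7 Wnt ligands above background were *Wnt5a*, *Wnt5b*, *Wnt7a*, *Wnt7b*, *Wnt9a*, *Wnt9b* and *Wnt10a*, and 0 of them had an unadjusted p under 0.05 in limma (7.39% of all genes above background did). WNT7A and WNT7B, made by the neuroepithelium, are known for guiding the growth of brain vessels. *Wnt7b* had log2 values of 9.20, 9.36 and 9.35 in controls and 9.17, 9.46 and 9.28 in mutants. The mutants enclosed the controls, and the ratio of mutant to control was 0.999 (95% interval 0.865 to 1.15). *Wnt7a* had means of 8.76 ± 0.11 (SD, n = 3) in controls and 8.83 ± 0.13 (SD, n = 3) in mutants, a log2 difference of 0.07 (-0.13 to 0.28). *Wnt5a*, the best known ligand of the branches that do not use β-catenin, had 7.70 ± 0.10 (SD, n = 3) and 7.78 ± 0.14 (SD, n = 3), a difference of 0.08 (-0.12 to 0.29). Its paralog *Wnt5b* had a difference of 0.01 (-0.12 to 0.15), *Wnt9a* 0.03 (-0.13 to 0.19), *Wnt9b* -0.07 (-0.31 to 0.16) and *Wnt10a* -0.01 (-0.21 to 0.20). The differences of these ligands were thus smaller than 0.1 on the log2 scale, and their intervals included 0.

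The other 12 Wnt ligands did not exceed background by their mean over the 6 arrays, which limits what a difference can show. Single arrays did so for *Wnt8b* (3 arrays) and *Wnt2b* (1 array). *Wnt6* had log2 values of 7.01, 6.80 and 6.87 in controls and 7.18, 7.07 and 7.04 in mutants. Every mutant was higher, by 0.21 on average (95% interval 0.03 to 0.38, unadjusted p = 0.0245 and adjusted p = 0.600 from limma). *Wnt16* had 6.20, 6.18 and 6.22 in controls and 6.29, 6.35 and 6.52 in mutants, a difference of 0.19 (0.02 to 0.36, unadjusted p = 0.0364 and adjusted p = 0.648 from limma). The controls of *Wnt16* were close together and mutant replicate 7 was the farthest from them. *Wnt6* lost an unadjusted p under 0.05 without control replicate 3, control replicate 4 or mutant replicate 5, and *Wnt16* without any 1 of the 3 controls or mutant replicate 7. *Wnt16* also lost it with median centring, a trend with robust prior, an unmoderated test and *Xist* as covariate, where *Wnt6* kept it. *Wnt8b*, a marker of the cortical hem and medial pallium named here for its spread, had 6.93, 6.62 and 7.75 in controls and 7.61, 7.26 and 7.45 in mutants. Its within-group SD of 0.432 compares with a median of 0.109 over the 51 genes and 0.0924 over all genes. The mean difference was 0.34, but the interval ran from -0.26 to 0.93, and the value was 0.66 without control replicate 4 and 0.09 without control replicate 3. The list of choroid plexus and cortical hem markers, 5 measured genes once *Rspo2* and *Wnt3a* were set aside, had mean levels of 7.01, 6.86 and 7.03 in controls and 7.16, 6.92 and 7.07 in mutants. Control replicate 3 was thus lowest in both, but control replicate 4, the highest for *Wnt8b*, lay below mutant replicates 5 and 7 in the list. The part of hem tissue in the value of *Wnt8b* was not tested. *Otx2*, *Lmx1a* and *Kcne2* of that list lay below background. *Wnt1*, *Wnt2*, *Wnt2b*, *Wnt3*, *Wnt3a*, *Wnt4*, *Wnt8a*, *Wnt10b* and *Wnt11* had differences between -0.12 (*Wnt3a*, the ligand of the hem known for its need in hippocampal growth) and 0.13 (*Wnt3*).

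Several Wnt ligand genes neighbor each other in the mouse genome, and 4 such pairs lie next to each other in the gene order of assembly GRCm38.p6. *Wnt6* on chromosome 1 had 0.21 and its neighbor *Wnt10a* -0.01. On chromosome 11, *Wnt3a* had -0.12 beside 0.03 for *Wnt9a*, and *Wnt3* had 0.13 beside -0.07 for *Wnt9b*. *Wnt10b* and *Wnt1* on chromosome 15 had 0.11 and 0.02. In 3 of these pairs the members differed in sign by mean, and in the same 3 only 1 member lay above background. Among the genes of the 4 pairs, only *Wnt6* had an interval that excluded 0, so the signs of the others are not settled. None of the 4 differences within a pair was tested.

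TCF and LEF factors, the nuclear partners of β-catenin, bind DNA at sites with the core CTTTGA, and some Wnt pathway genes are themselves targets. Promoter sequences of RefSeq (assembly GRCm38.p6, 250 bases before to 50 after the start of the gene) were at hand for 34 of the 51 genes in 37 windows. The core CTTTGA, or TCAAAG on the other strand, stood in 6 of the 37 windows (16.2%) and in 16.0% of all 32851 windows. The longer form CTTTGATC, which contains the core, stood in 2 of 37 and in 0.938% of all. Shown are the windows of *Wnt5b* and *Wnt11*, which hold the longer form, and of *Dkk1*, a known feedback target that holds the core at 2 places. Each reads 5′ to 3′ along the gene, with the core in capitals.
Wnt5b, chr6:119449422-119449487, minus strand: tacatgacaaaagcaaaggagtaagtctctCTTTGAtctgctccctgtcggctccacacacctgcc
Wnt11, chr7:98835032-98835097, plus strand: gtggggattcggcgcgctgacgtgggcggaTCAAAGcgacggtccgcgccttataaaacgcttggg
Dkk1, chr19:30549635-30549700, minus strand: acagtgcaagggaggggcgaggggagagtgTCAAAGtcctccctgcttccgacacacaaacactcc
Dkk1, chr19:30549578-30549643, minus strand: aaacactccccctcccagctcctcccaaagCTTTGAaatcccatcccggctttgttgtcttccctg
The core began 71 bases before the start of *Wnt5b*, 50 before that of *Wnt11* and 174 and 117 before that of *Dkk1*. *Fzd1*, *Frzb* and *Ror1* hold it too. The log2 differences of these 6 genes were 0.01 (*Wnt5b*), -0.04 (*Wnt11*), 0.01 (*Dkk1*), 0.03 (*Fzd1*), 0.04 (*Frzb*) and -0.02 (*Ror1*), with *Wnt5b* and *Fzd1* above background. A match of letters is a description of the sequence and does not show that a factor binds there.

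Of the frizzleds, 8 of 10 were above background, and differences in the class ran from -0.14 to 0.12 with 0 of 10 at an unadjusted p under 0.05 in limma, beside 7.32% of all genes. *Fzd3*, a receptor of planar polarity needed for the growth of forebrain axon tracts, had log2 values of 10.51, 10.38 and 10.52 in controls and 10.34, 10.64 and 10.46 in mutants. The mutants enclosed the controls, and the difference was 0.01 (95% interval -0.19 to 0.21). *Fzd2* had the smallest p of the class, with 8.03, 8.06 and 7.96 in controls and 7.77, 8.01 and 7.84 in mutants. Mutant replicate 6 lay among the controls, and the difference was -0.14 (-0.31 to 0.03, unadjusted p = 0.100 and adjusted p = 0.745 from limma). *Fzd1* and *Fzd7*, close paralogs of *Fzd2*, had 0.03 each (-0.16 to 0.22 and -0.17 to 0.22). *Fzd4*, which takes up the Norrin signal in vessel cells, had -0.04 (-0.18 to 0.10) with controls between 8.11 and 8.12. *Fzd6*, of planar polarity, had -0.07 (-0.28 to 0.13), *Fzd8* -0.05 (-0.25 to 0.15) and *Fzd9* 0.10 (-0.06 to 0.27). *Fzd5*, just below background, had 0.12 (-0.07 to 0.31) and *Fzd10* had 0.10 (-0.11 to 0.30) at a level of 5.00 in controls.

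Co-receptors of the β-catenin branch and the kinase-like receptors were above background apart from *Ror1*. *Lrp6* had log2 values of 10.62, 10.76 and 10.75 in controls and 10.62, 10.99 and 10.93 in mutants. Mutant replicates 6 and 7 stood above all controls while mutant replicate 5 was level with the lowest. The difference was 0.14 (95% interval -0.10 to 0.37, adjusted p = 0.838 from limma), and it was 0.25 without mutant replicate 5. A second cluster of *Lrp6* probes, at 7.39 over the 6 arrays and thus just above background, had -0.04 (-0.23 to 0.14). The signs of the clusters differed, but both intervals included 0, so the direction is not settled. *Lrp5*, its paralog, had -0.04 (-0.22 to 0.13). *Ryk*, a receptor with an inactive kinase domain that reads WNT5A in growing axons, had 10.72, 10.83 and 10.82 in controls and 10.77, 10.83 and 10.82 in mutants, a difference of 0.02 (-0.12 to 0.15). *Ror2*, another WNT5A receptor, had 0.05 (-0.11 to 0.22), and *Ror1* had -0.02 (-0.24 to 0.20).

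R-spondins raise Wnt signaling by binding Lgr receptors and taking the ubiquitin ligases ZNRF3 and RNF43 away from frizzleds. In this class 3 of 7 genes did not overlap between groups (42.9%, beside 13.3% of all genes), 2 higher and 1 lower in mutants, with differences of 0.11 or less in size and 0 of 7 at an unadjusted p under 0.05 in limma (7.32% of all genes). *Lgr4* had log2 values of 8.24, 8.39 and 8.37 in controls and 8.46, 8.43 and 8.43 in mutants. All mutants were higher, by 0.11 on average (95% interval -0.04 to 0.25, unadjusted p = 0.124), with control replicate 2 the farthest away. *Rspo3* had 9.54, 9.54 and 9.53 in controls and 9.35, 9.51 and 9.46 in mutants. All mutants were lower, by 0.10 on average (95% interval -0.25 to 0.05, unadjusted p = 0.157 from limma), and mutant replicate 6 nearly met the controls. *Rspo4*, below background, had 6.80, 6.80 and 6.78 in controls and 6.83, 6.84 and 6.81 in mutants, a difference of 0.04 (-0.09 to 0.16) in a gene whose within-group SD was 0.0120. *Rspo1* had a difference of 0.09 (-0.11 to 0.30), *Rspo2* of -0.01 (-0.24 to 0.22) and *Lgr6* of 0.05 (-0.09 to 0.19), all above background. *Lgr5*, a stem cell marker of other tissues and a target of the pathway, had -0.01 (-0.25 to 0.24) below background, and a second cluster of its probes had an interval of -0.19 to 0.18 at a level of 6.23.

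Other genes of the pathway were counted from 5 lists. None of their genes passed an adjusted p of 0.05 in limma, and those with an unadjusted p under 0.05 (7.32% of all genes) were *Frat1*, *Wls* and *Daam2* alone. *Frat1*, which encodes a GSK-3 binding protein that keeps the kinase from axin, had log2 values of 9.23, 9.35 and 9.29 in controls and 8.75, 8.92 and 8.93 in mutants. All mutants were lower, by 0.42 on average (95% interval -0.59 to -0.26, unadjusted p = 0.000373 and adjusted p = 0.376 from limma). *Frat1* was the 1 of 26 genes of the β-catenin branch inside the cell to pass the unadjusted threshold, and the median of that list was 0.03. Groups did not overlap for 7 of the 26 (26.9%), 3 higher and 4 lower in mutants, *Frat1* among the latter. Beside this stand 13.3% of all genes and 15.9% of all genes above background, where 25 of the 26 lay. *Wls*, the carrier that Wnt proteins need to leave the cell, had 8.15, 8.07 and 8.46 in controls and 8.38, 8.59 and 8.52 in mutants, a difference of 0.27 (0.01 to 0.53) with control replicate 4 among the mutants. Of the 7 genes of Wnt secretion and release it was the 1 with an unadjusted p under 0.05, the median of the list was 0.01, and *Porcn*, the enzyme that attaches the lipid to Wnt proteins, had -0.05 (-0.21 to 0.11). *Daam2*, a formin that acts downstream of Dishevelled, had 0.21 (0.03 to 0.40) and was the 1 of 17 planar polarity and calcium genes to pass the unadjusted threshold, with 11 higher and 6 lower by mean and a median of 0.06. Of 14 genes of receptor turnover and co-factors 0 had an unadjusted p under 0.05, the smallest p values being those of *Kremen1*, a Dickkopf receptor, at -0.12 and *Caprin2* at -0.12, with a median of -0.02. Of 18 feedback and target genes there were 0 as well, with a median of -0.01 and 7 above and 11 below the controls by mean, and *Bambi* at -0.10 and *Nkd1* at -0.09 had the smallest p values. Of these 18 genes, 6 did not exceed background by their mean, which limits what their differences can show. The lists share *Lef1*, *Notum*, *Znrf3*, *Rnf43* and *Apcdd1*.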

How the data were processed

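1 array was scanned for each embryo. The submitters' processing notes name Partek 6.12.0712, with which the authors made the deposited log2 expression values of 41345 transcript clusters. Background correction, probe summary, normalization and genome build are not given in the sources used here. A cluster value pools probes along a gene and hides changes of single exons. Of the clusters, 23521 had a single symbol, 1820 several and 16004 none in the platform annotation used here. Clusters with a single symbol were used, and for 1082 genes with several the cluster of highest mean was taken, leaving 22180 genes, of which 21994 matched the gene table of GRCm38.p6.

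Mutant minus control was fitted in R 4.3.3 by limma 3.58.1 (lmFit, then eBayes; two-sided), without covariates, with Benjamini-Hochberg adjustment over all genes (3.78 prior degrees of freedom). The test was tried on simulated data. Arrays differed pairwise by 0.170 to 0.218 (root mean square, log2), so none was a duplicate. Embryos are separate animals, treated as independent although some were littermates. The genes, lists and tests were chosen with earlier results of these data known. Each gene above background is given with its value. All 6 values are given for genes with an unadjusted p under 0.05 or without overlap, and for the gene of smallest p and that of brightest signal in each class. From each further list, genes with an unadjusted p under 0.05, or else the 2 of smallest p, are named. Of genes below background, the rule gives a value for that of smallest p in each class. *Wnt8b*, *Porcn*, the array values of *Sfrp2* and *Wif1*, and further differences of genes below background are outside this rule and were given after their values were seen. Marker lists leave out the 51 genes. Alternatives were quantile normalization, median centring, leaving out dim genes, other choices of cluster, a trend with robust prior, array weights, an unmoderated test, *Xist* as covariate, other background levels and leaving out each array.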

Additional observations from a re-analysis of the deposited data

How the results depend on the processing

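In every setting run, 0 of the 51 genes passed the adjusted threshold of 0.05. The count of 3 at an unadjusted p under 0.05 became 1 when genes below background were left out, which removes *Wnt6* and *Wnt16*. It became 6 with array weights and ran from 2 to 6 when 1 array was left out. The share of all genes at that p was not counted in these settings. The number of genes whose interval lay within 1.5-fold was 49 or 50 of 51, and 27 of 27 when dim genes were left out. Over the whole array, the count of 1 gene became 9 without dim genes, 27 with the trend and robust prior and 0 with the unmoderated test. The cause of these shifts was not tested. The number of genes above background was 10 at the 99th percentile of the receptor genes and 51 at their median, and 27 or 28 without 1 array. Of 741 values of single genes in 15 settings, none changed sign where an interval excluded 0 and none passed the adjusted threshold. For 22 of the 51 genes the sign of the difference never changed. The value that moved most was that of *Wnt8b*, by 0.325 without control replicate 4. No paired analysis was possible because the replicate numbers of the groups, 2 to 4 and 5 to 7, are not shared. Signal near background limits what can be said of 24 genes.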

Other observations

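The 27 genes above background did not place the arrays in the same order as the groups. Control replicate 2 had the lowest value for 11 of them and mutant replicate 5 for 8, while control replicate 3 and mutant replicate 6 each had the highest for 8. The median deviation of these genes from their own medians was -0.06 for control replicate 2 and -0.05 for mutant replicate 5, and at most 0.01 in size on the other arrays.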
